A study of Mus musculus with 17 samples.

Results

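The enzymes and regulators of glutathione, and antioxidant enzymes that work beside them, were followed through normal, dystrophic and utrophin-expressing mouse muscle on 17 expression arrays. The set comprised 10 genes (Gclc, Gclm, Gss, Gsr, Chac1, Gpx1, Gpx3, Gpx4, Hmox1 and Nqo1), out of 12393 genes measured. Its members were chosen by symbol, and all 13 probe sets annotated to exactly 1 of these symbols were taken, out of 20380 probe sets with 1 symbol. A probe set is a group of short probes that reads the transcripts of 1 gene, and values are log2 expression levels as deposited. A gene with several probe sets was called by its brightest one.

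All arrays held RNA of the tibialis anterior, which lifts the foot, from mice labelled as males aged 56 days, with the muscles of both legs pooled and 8 µg of RNA labelled per array. The 6 normal arrays came from wild-type mice. The 6 mdx arrays came from mdx mice, which lack dystrophin and are the usual mouse model of Duchenne muscular dystrophy. The 5 fiona arrays came from a transgenic line that makes utrophin, a relative of dystrophin, at a high level on the same mdx background, so that mdx and fiona muscle share the dystrophin mutation. The strain of the wild-type mice and the promoter of the transgene are not given in the sources used here. Arrays of a group are labelled as biological replicates, and their number limits the precision of every value.

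Glutathione is the main soluble thiol of the cell. Glutamate-cysteine ligase, with the catalytic subunit Gclc and the modifier subunit Gclm, joins glutamate and cysteine, glutathione synthetase (Gss) adds glycine, and Chac1 breaks glutathione down inside the cell. Glutathione peroxidases use it to reduce peroxides, and glutathione reductase (Gsr) returns the oxidised form to glutathione with NADPH. In muscle these enzymes act on the peroxides made during contraction and by infiltrating phagocytes. Many of the genes are known targets of the transcription factor NRF2, which binds antioxidant response elements, while Chac1 is a known target of ATF4 and CHOP in the stress response to misfolded proteins or amino acid shortage.

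The checks on the arrays bear on what follows. Dmd, the dystrophin gene, had a level of 6.64 ± 0.20 on the normal arrays against 3.35 ± 0.10 for mdx and 3.39 ± 0.14 for fiona (probe set 1417307_at, mean ± SD with n = 6, 6 and 5 here and for all other values). On its brightest probe set, 1448665_at, Dmd measured 8.34 ± 0.77, 5.33 ± 0.77 and 5.04 ± 1.05. On a dim one, 1430320_at, the mdx minus normal difference was only -0.12 and was not called in limma. The arrays are the unit of replication, so that each p measures only the spread between them. Utrn on probe set 1427569_a_at did not exceed the signal of bacterial control probe sets with no RNA added, called the control level here, on any normal or mdx array, and measured 4.94, 3.04, 3.78, 7.28 and 2.48 on fiona arrays 1 to 5, with 1 of them not above it. On the brightest Utrn probe set, 1452222_at, fiona muscle was not higher (6.57 ± 0.82, against 6.98 ± 0.39 in mdx muscle). With the differences between groups taken out, 42.6% of the variance lay on 1 component, whose sign divided the arrays into 2 sets. Set 1 had 3 normal, 3 mdx and 2 fiona arrays (fiona 1 and 4), and set 2 had 3 of each group. Although the labels give males, 7 arrays had high Xist and low Eif2s3y, the female pattern, namely 1 normal, 2 mdx and 4 fiona arrays. On mdx array 6 the pattern was mixed, with Xist at 5.40 beside Eif2s3y at 8.11. Normal and mdx arrays of the same label number deviated together from their group means (r over 0.1 in 6 of 6 pairs). Each such pair also lay within 1 array set, and whether number or set underlies the agreement was not tested. The mdx minus normal comparison was therefore also fitted in limma on the normal and mdx arrays with the number as a block, called the paired fit. Its adjusted p is given wherever the call of a named gene changed. Markers of muscle fibres had mean levels between 14.3 and 14.8 on every array.

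Of the 10 genes, 2 were called between mdx and normal muscle (limma, Benjamini-Hochberg adjusted p under 0.05), against 4.5% of all genes, 3.17% higher and 1.33% lower. Gpx1, the abundant glutathione peroxidase of cytosol and mitochondria, was 2.72-fold higher in mdx muscle, and Chac1 was 4.49-fold lower. In the paired fit Gpx1 was called and Chac1 was not (adjusted p = 0.0904), and Gpx4 was called higher (adjusted p = 0.0459). Between fiona and mdx muscle 2 genes were called, both lower in fiona: Gpx1 (2.72-fold) and Gpx4 (1.43-fold), the peroxidase that reduces lipid hydroperoxides in membranes. In that comparison 40.4% of all genes were called, 33.5% higher and 6.88% lower. Between fiona and normal muscle 0 of the 10 genes were called, as were 0% of all genes, higher or lower. Dmd was among the genes not called, although it differed by -3.30 on its brightest probe set (adjusted p = 0.0914 in limma). A missing call there therefore does not show equal levels. The unadjusted limma p was under 0.05 for 1 of the 10 (Chac1) and for 2751 of all 12393 genes. Without fiona array 2, 902 of all genes and still 0 of the 10 were called there. The median difference of the 10 genes was 0.01 between mdx and normal, -0.12 between fiona and mdx and -0.07 between fiona and normal muscle, beside medians over all genes of -0.04, 0.08 and 0.04.

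**Figure D1:**
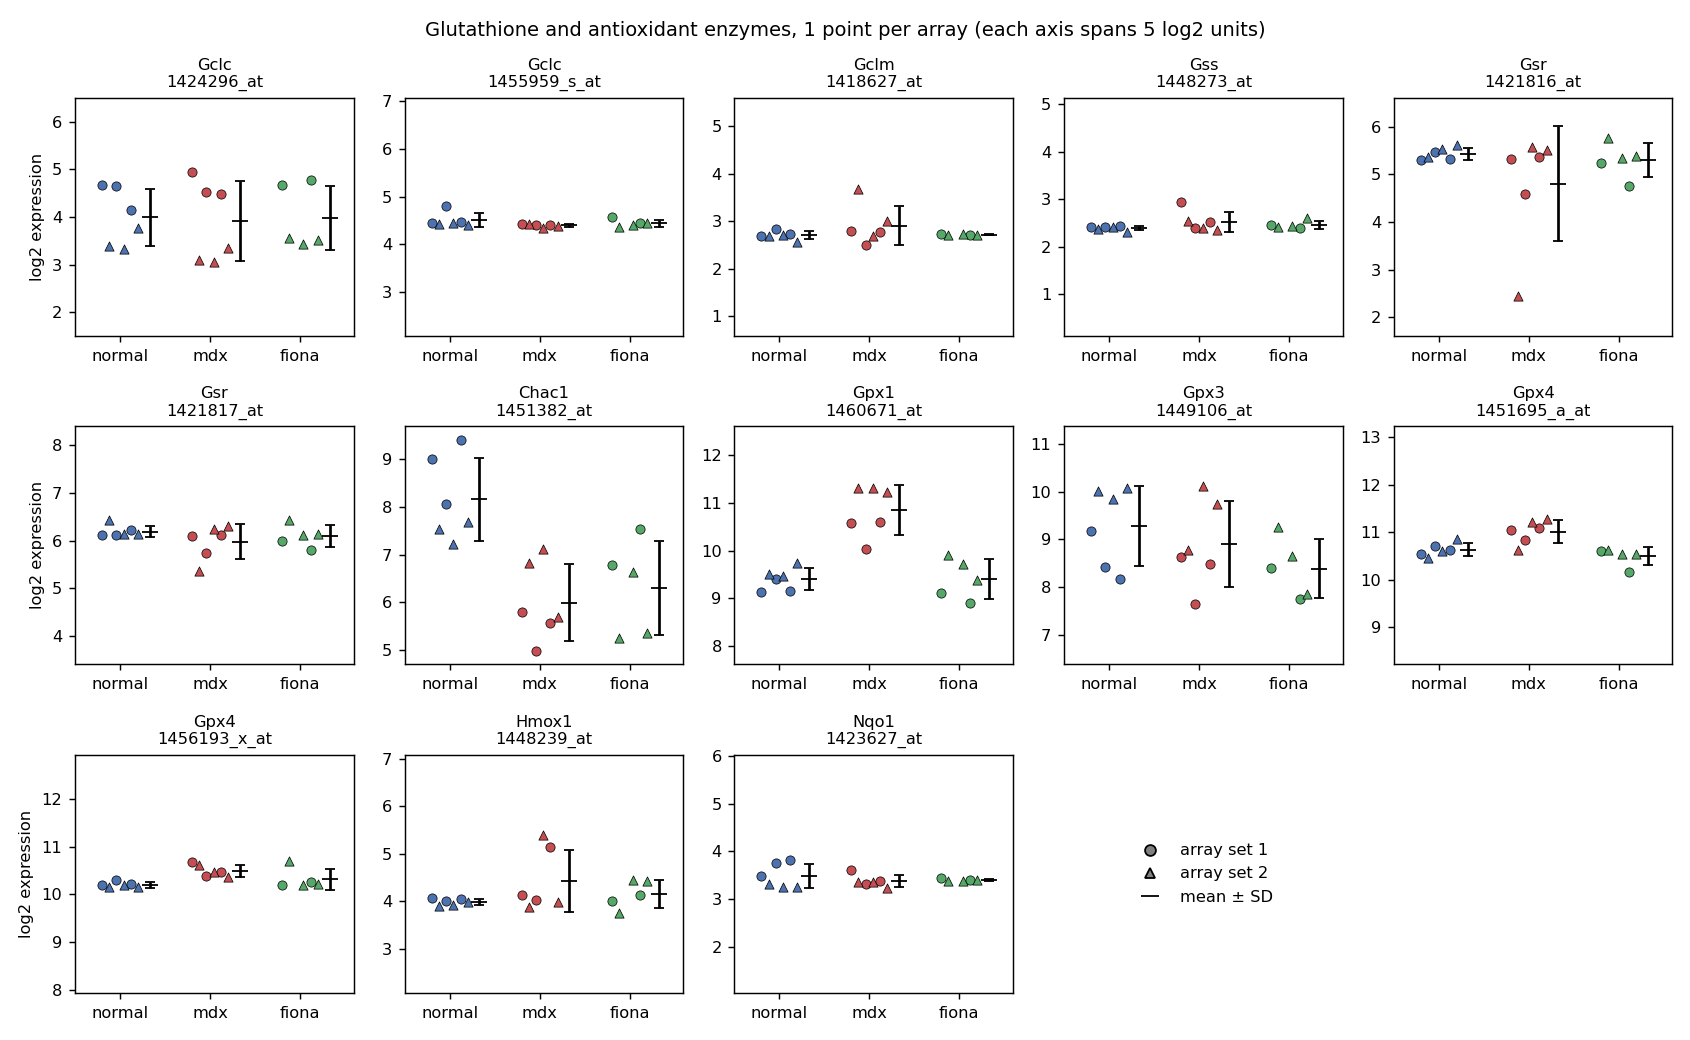
Log2 expression of the 13 probe sets, 1 panel each, with 1 point per array, circles for array set 1 and triangles for array set 2; bars give mean ± SD, and every axis spans 5 log2 units. Gpx1 stands higher on all 6 mdx arrays than on any other array, Chac1 stands higher on all 6 normal arrays than on any mdx array, and Gclm and Gss stay near 2.5.

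The promoters of the genes called between mdx and normal muscle are shown because the NRF2 and ATF4 pathways act through short promoter elements. They are the 250 bases before the start site, from RefSeq on GRCm38.p6, read 5′ to 3′ on the gene's strand, and capitals mark a match to a searched motif. Chac1 lies at chr2:119350992-119351241 and Gpx1 at chr9:108338830-108339079, both on the plus strand.

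Chac1: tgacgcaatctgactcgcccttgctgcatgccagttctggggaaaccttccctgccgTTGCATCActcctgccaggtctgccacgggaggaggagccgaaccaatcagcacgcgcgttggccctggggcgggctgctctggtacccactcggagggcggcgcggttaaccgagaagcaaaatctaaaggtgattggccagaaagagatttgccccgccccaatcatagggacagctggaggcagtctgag

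Gpx1: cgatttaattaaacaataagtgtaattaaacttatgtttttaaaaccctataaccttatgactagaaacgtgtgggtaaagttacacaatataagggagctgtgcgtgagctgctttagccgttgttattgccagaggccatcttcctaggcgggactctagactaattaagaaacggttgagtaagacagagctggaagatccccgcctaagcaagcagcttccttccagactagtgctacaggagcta

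Of the 10 genes, 7 were found in the promoter table, with 10 promoters in all, 4 of them for Gpx4. Gclc, Gsr and Hmox1 were not found, so their promoters were not searched. Only the 250 bases before each start site were searched, and elements farther away would be missed. The letters TGATGNAA, the core of the CEBP-ATF response element, and TGACNNNGC, the core of the antioxidant response element, were searched on both strands. The first was found in 3.45% of the 32851 promoters of the table and, among these genes, in Chac1 alone, where TTGCATCA on the printed strand begins 193 bases before the start site (bases 58 to 65). The second was found in 10.2% of all promoters and, among these genes, in Gclm alone, as GCACCGTCA beginning 134 bases before its start site. The motifs did not overlap, and a match of letters is not a measured site.

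Of the synthesis enzymes, Gss and Gclm were at or near the lower end of the scale. Gss did not exceed the control level (2.64 to 2.99 across arrays) on 6 of 6 normal, 5 of 6 mdx and 5 of 5 fiona arrays. Gclm did not exceed it on 5 of 6 normal, 2 of 6 mdx and 5 of 5 fiona arrays, and its highest value was 3.67 on mdx array 1. These arrays therefore gave no measured level for Gss or Gclm in most samples, and no fold is given for them.

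Gclc was measured by 2 probe sets. On 1455959_s_at, the brighter, it was 4.50 ± 0.15 (normal), 4.40 ± 0.03 (mdx) and 4.44 ± 0.08 (fiona), and the mdx minus normal difference of -0.10 (95% interval -0.23 to 0.02, limma adjusted p = 0.326) was not called. On 1424296_at it was 3.99 ± 0.60, 3.91 ± 0.84 and 3.99 ± 0.67, with differences between any 2 groups of at most 0.08 in size. The spread on 1424296_at followed the array sets and not the groups: all 8 arrays of set 1 lay between 4.15 and 4.95 and all 9 arrays of set 2 between 3.06 and 3.77. Part of this division is by construction, since the sets were drawn from the residuals of all probe sets, this one included. Within set 1 the mdx minus normal difference on 1424296_at was 0.16, and within set 2 it was -0.32.

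No difference in the recycling enzyme Gsr was called. On its brighter probe set, 1421817_at, it ranged from 6.11 to 6.43 (median 6.13) in normal muscle and from 5.36 to 6.31 (median 6.11) in mdx muscle, and measured 5.99, 6.44, 6.12, 5.80 and 6.14 in fiona muscle. The groups overlapped, and the differences were -0.21 for mdx minus normal (95% interval -0.52 to 0.10), 0.12 for fiona minus mdx (-0.21 to 0.44) and -0.09 for fiona minus normal (-0.42 to 0.23), with limma adjusted p from 0.367 to 0.740. The other probe set, 1421816_at, gave 5.43 ± 0.12, 4.80 ± 1.21 and 5.30 ± 0.36, with an mdx minus normal difference of -0.63 (95% interval -1.52 to 0.26). Its wide spread in mdx muscle came from mdx array 1 at 2.45, at or under the control level, where 1421817_at also had its lowest mdx value. Across the 17 arrays the 2 probe sets had a correlation of 0.887, or 0.875 without the group means.

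Chac1, which cleaves glutathione, had the largest difference of the 10 genes. Its single probe set, 1451382_at, ranged from 7.23 to 9.42 (median 7.88) in normal muscle and from 4.97 to 7.12 (median 5.75) in mdx muscle, and measured 6.79, 5.24, 6.63, 7.54 and 5.35 on fiona arrays 1 to 5. Every mdx array lay below every normal array, as was the case for 2.35% of all probe sets, and 4 of 5 fiona arrays also lay below every normal array.

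From a mean of 8.16 ± 0.87 in normal muscle, Chac1 fell by 2.17 on the log2 scale (SE 0.49, 95% interval of the difference -3.22 to -1.11) to 6.00 ± 0.81 in mdx muscle. The limma adjusted p was 0.0208, and the two-sided exact permutation p was 0.00216, the smallest that 6 against 6 arrays can give. The call did not hold with the label number as a block, at an adjusted p of 0.0904 in the paired fit and 0.0780 with the fiona arrays included. In fiona muscle Chac1 measured 6.31 ± 0.99, a difference of 0.31 from mdx (95% interval -0.79 to 1.42, adjusted p = 0.664 in limma) and of -1.85 from normal muscle (SE 0.52, -2.96 to -0.75, adjusted p = 0.212 in limma, exact permutation p = 0.00866). In limma the fiona level was therefore not resolved from the mdx level, nor was it called different from the normal level.

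The Chac1 difference was not of one size across the array sets. In set 1 normal muscle measured 8.83 ± 0.69 and mdx muscle 5.44 ± 0.42 (3 arrays each), a difference of -3.39, and in set 2 they measured 7.49 ± 0.24 and 6.55 ± 0.75, a difference of -0.94. Fitted alone, set 1 gave a limma adjusted p of 0.0144 for that difference, and in set 2 it was not called. Fiona muscle lay above mdx muscle in set 1 (7.16 ± 0.53, 2 arrays, difference 1.72, limma adjusted p = 0.0376) and below it in set 2 (5.74 ± 0.77, 3 arrays, difference -0.81). The test of the difference between the sets did not pass (limma adjusted p = 0.259 for mdx minus normal and 0.327 for fiona minus mdx). The 2 fiona arrays of set 1 were also those with the most Utrn signal, and whether that bears on Chac1 was not tested. On the arrays without the female pattern the mdx minus normal difference of Chac1 was -2.21 and did not pass the test (adjusted p = 0.0863 in limma), nor did it without mdx array 6 as well (-2.10, adjusted p = 0.192).

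**Figure D2:**
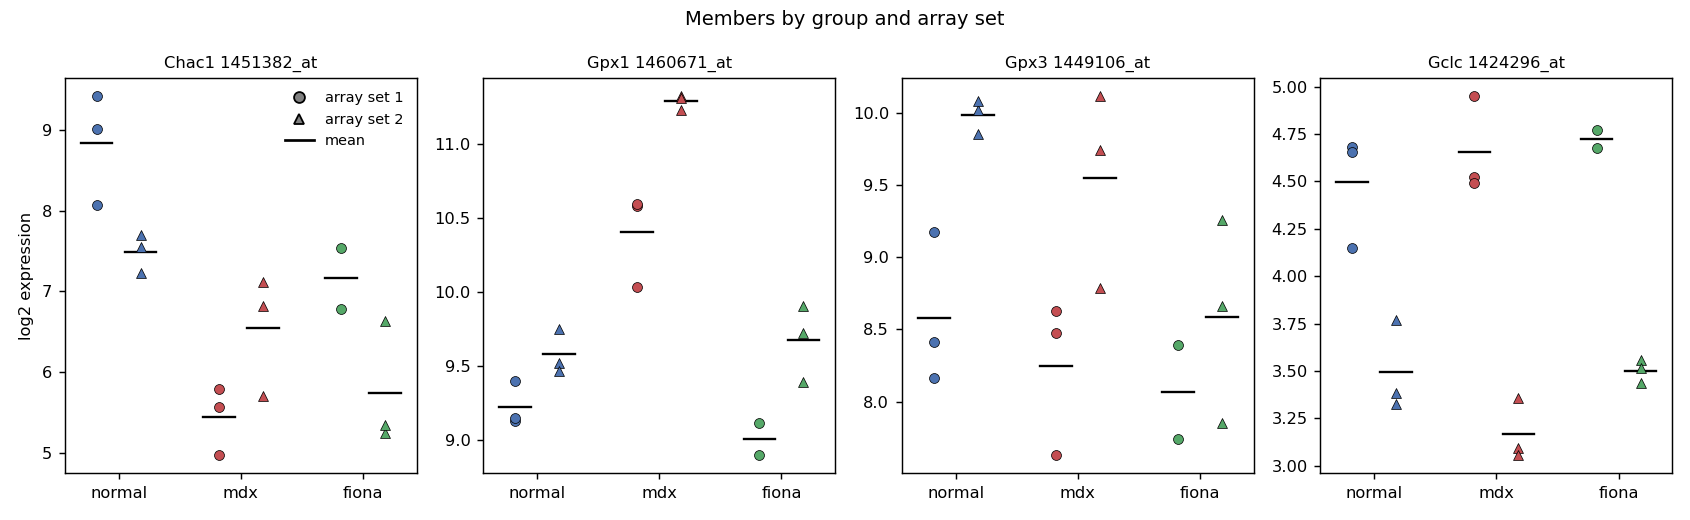
Log2 expression of Chac1, Gpx1, Gpx3 and Gclc (1424296_at) by group and array set, 1 point per array, with a bar at each mean; each panel has its own scale. Gpx1 is higher in mdx than in normal and fiona muscle within both sets, Chac1 is lower in mdx than in normal muscle by 3.39 in set 1 and 0.94 in set 2, and Gclc separates the sets but not the groups.

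Gpx1 was higher in mdx muscle than in normal and in fiona muscle. Probe set 1460671_at ranged from 9.12 to 9.75 (median 9.43) in normal muscle and from 10.03 to 11.32 (median 10.91) in mdx muscle, and measured 9.11, 9.91, 9.72, 8.90 and 9.39 on fiona arrays 1 to 5. All 6 mdx arrays lay above all other arrays, while the fiona and normal arrays overlapped. Groups apart in these directions were found for 2.17% of all probe sets between mdx and normal and for 2.05% between fiona and mdx muscle.

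The means were 9.40 ± 0.24, 10.85 ± 0.53 and 9.40 ± 0.42. The mdx minus normal difference was 1.45 (SE 0.23, 95% interval 0.96 to 1.93, adjusted p = 0.00158 in limma, exact permutation p = 0.00216). The fiona minus mdx difference was -1.44 (SE 0.24, -1.95 to -0.93, adjusted p = 0.00287 in limma, exact permutation p = 0.00433, the smallest that 5 against 6 arrays can give). The fiona minus normal difference was 0.00, with a 95% interval from -0.51 to 0.52 (adjusted p = 0.993 in limma). Both called differences share the mdx arrays, so they are not independent of each other.

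Within the array sets the Gpx1 differences were 1.18 and 1.71 between mdx and normal muscle, and -1.40 and -1.62 between fiona and mdx muscle. Gpx1 also differed between the sets themselves, lying 0.63 lower in set 1 about the group means. On the arrays without the female pattern the mdx minus normal difference was 1.60 (adjusted p = 0.00469 in limma). The pattern was on 4 fiona arrays against 2 mdx arrays. Comparisons with fiona were not run without it, for Gpx1 or any other gene, and its part in them was not tested.

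Markers of macrophages moved with Gpx1. Of 15 such genes, 11 rose in mdx muscle and 13 fell in fiona relative to mdx muscle. Their mean level was 4.22 to 5.03 on normal, 7.03 to 8.13 on mdx and 4.32 to 5.02 on fiona arrays, and their summed level was 9.37 to 10.88, 12.90 to 14.20 and 9.64 to 10.89 (log2). The mean of 4 of the 15 lay at or under the control level in normal and in fiona muscle, Cd68 among them, and of 0 in mdx muscle. Within the mdx group the order was not the same on the mean level: mdx array 2 had the lowest (7.03) and a Gpx1 of 11.31, close to the group's highest. On the summed level mdx array 4 was lowest (12.90), and mdx array 2 had 13.32. The mdx arrays of array set 2, array 2 among them, had a Gpx1 of 11.29 ± 0.05, against 10.40 ± 0.32 in set 1. In whole muscle, fewer cells of a type and less RNA per cell cannot be told apart, and the part of macrophages in the Gpx1 result was not tested. Markers of regenerating fibres moved the same way, with 5 of 6 higher in mdx (4 in the paired fit) and 6 of 6 lower in fiona relative to mdx muscle, and so did those of fibroblasts (2 of 6 and 5 of 6); their part was not tested either. Of 4 erythrocyte markers measured, 0 were called between mdx and normal muscle in limma, and 0 had an unadjusted p under 0.05. Between fiona and mdx muscle 2 of the 4 were called higher, Epb42 by 0.53 and Hba-a1, which like Alas2 had a mean at or under the control level.

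**Figure D3:**
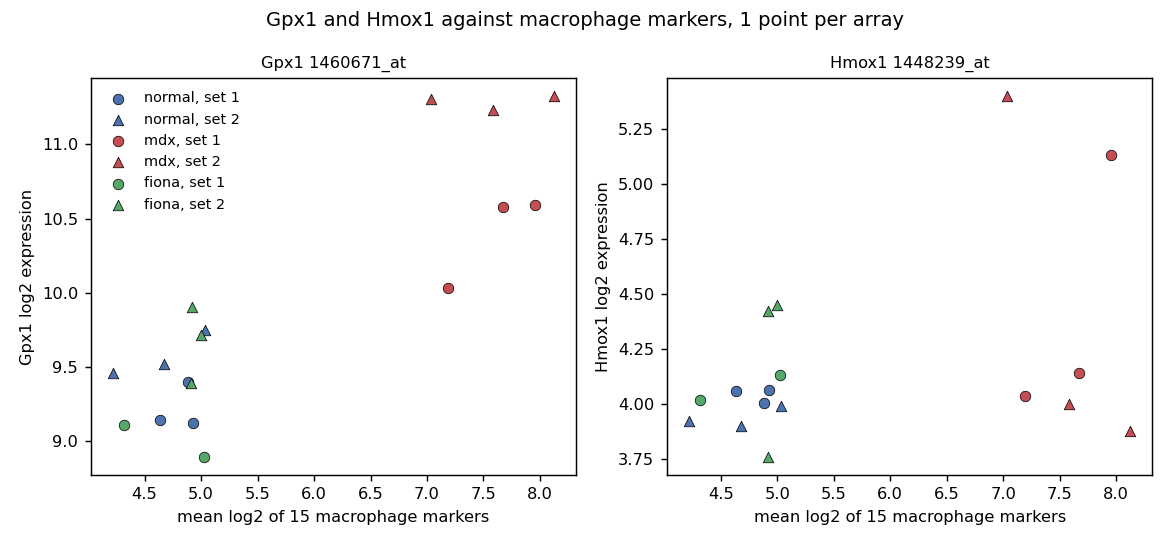
Gpx1 (left) and Hmox1 (right) in log2 expression against the mean log2 level of 15 macrophage markers, 1 point per array, coloured by group and shaped by array set. The mdx arrays stand apart on the macrophage axis (7.03 to 8.13); their Gpx1 values are all above those of the other arrays, whereas only mdx arrays 2 and 5 stand out in Hmox1.

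Gpx4 fell in fiona relative to mdx muscle. On the brighter probe set, 1451695_a_at, its values ranged from 10.45 to 10.85 (median 10.61) in normal and from 10.63 to 11.28 (median 11.06) in mdx muscle, and were 10.61, 10.63, 10.55, 10.16 and 10.55 in fiona muscle. Of the mdx arrays 4 of 6 lay above every normal array, and 4 of 5 fiona arrays lay below every mdx array, so that mdx overlapped both other groups. The lowest mdx value was that of array 1. From 11.01 ± 0.24 in mdx muscle Gpx4 fell by 0.51 (SE 0.12, 95% interval of the difference -0.76 to -0.26) to 10.50 ± 0.19 in fiona muscle, with a limma adjusted p of 0.0130 (exact permutation p = 0.00866). The call was lost in array set 2 alone (difference -0.47, adjusted p = 0.251 in limma).

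Between mdx and normal muscle, where the normal mean was 10.63 ± 0.14, the Gpx4 difference of 0.38 (SE 0.11, 95% interval 0.14 to 0.61) did not pass the test (adjusted p = 0.0751 in limma, exact permutation p = 0.0130). It passed in the paired fit (adjusted p = 0.0459), without mdx array 1 (0.46, adjusted p = 0.0189), without fiona array 4 (adjusted p = 0.0459), with the array sets as a block (adjusted p = 0.0498) and on the arrays without the female pattern (0.56, adjusted p = 0.00522), all in limma. The other probe set, 1456193_x_at, gave 10.20 ± 0.06, 10.50 ± 0.13 and 10.32 ± 0.22. All 6 of its mdx arrays lay above every normal array, as was the case for 2.17% of all probe sets. Its mdx minus normal difference of 0.30 also missed the threshold (adjusted p = 0.0540 in limma, and 0.0494 in the paired fit). With 1 array left out that probe set passed in 2 of 17 fits (lowest adjusted p = 0.00325 in limma). Its fiona minus mdx difference was -0.18 (exact permutation p = 0.121), not called in limma, and -0.28 without fiona array 2 (adjusted p = 0.00286), which at 10.71 lay above every mdx array. The 2 Gpx4 probe sets had a correlation of 0.43 across the 17 arrays, and of -0.02 once the group means were removed.

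Gpx3, the secreted plasma peroxidase, varied too widely for a difference to be called. It ranged from 8.16 to 10.08 (median 9.51) in normal and from 7.63 to 10.11 (median 8.71) in mdx muscle, and measured 8.39, 9.25, 8.66, 7.74 and 7.85 in fiona muscle, with all groups overlapping. The differences were -0.39 for mdx minus normal (95% interval -1.34 to 0.57), -0.52 for fiona minus mdx (-1.52 to 0.49) and -0.90 for fiona minus normal (-1.91 to 0.10), with limma adjusted p of 0.562, 0.411 and 0.261. Gpx3 lay 1.10 lower in array set 1 than in set 2 about the group means. About those means Gpx1 and Gpx3 varied together across the 17 arrays (r = 0.778, the highest of the 45 pairs of genes), and both were lower in set 1.

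Hmox1, the inducible haem oxygenase, was high on 2 mdx arrays only. Normal arrays ranged from 3.90 to 4.06 (median 4.00), fiona arrays measured 4.02, 3.76, 4.45, 4.13 and 4.42, and mdx arrays ranged from 3.88 to 5.40 (median 4.09). The 2 high mdx arrays, 2 and 5, measured 5.40 and 5.13, and the other 4 lay between 3.88 and 4.14, within or near the range of normal muscle. The mdx minus normal difference of 0.44 (95% interval -0.06 to 0.95) had a limma adjusted p of 0.321. Those 2 arrays did not share an array set, and their mean macrophage levels were 7.03, the lowest mean of the mdx group, and 7.96.

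Nqo1, which reduces quinones and is a standard NRF2 target, lay near the median of all probe sets (3.52 to 3.82 across arrays). It measured 3.48 ± 0.26 (normal), 3.37 ± 0.13 (mdx) and 3.39 ± 0.02 (fiona). The mdx minus normal difference was -0.11 (95% interval -0.32 to 0.10), and its limma adjusted p was 0.458. It exceeded the control level on 17 of 17 arrays and the array's median on 3.

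**Figure D4:**
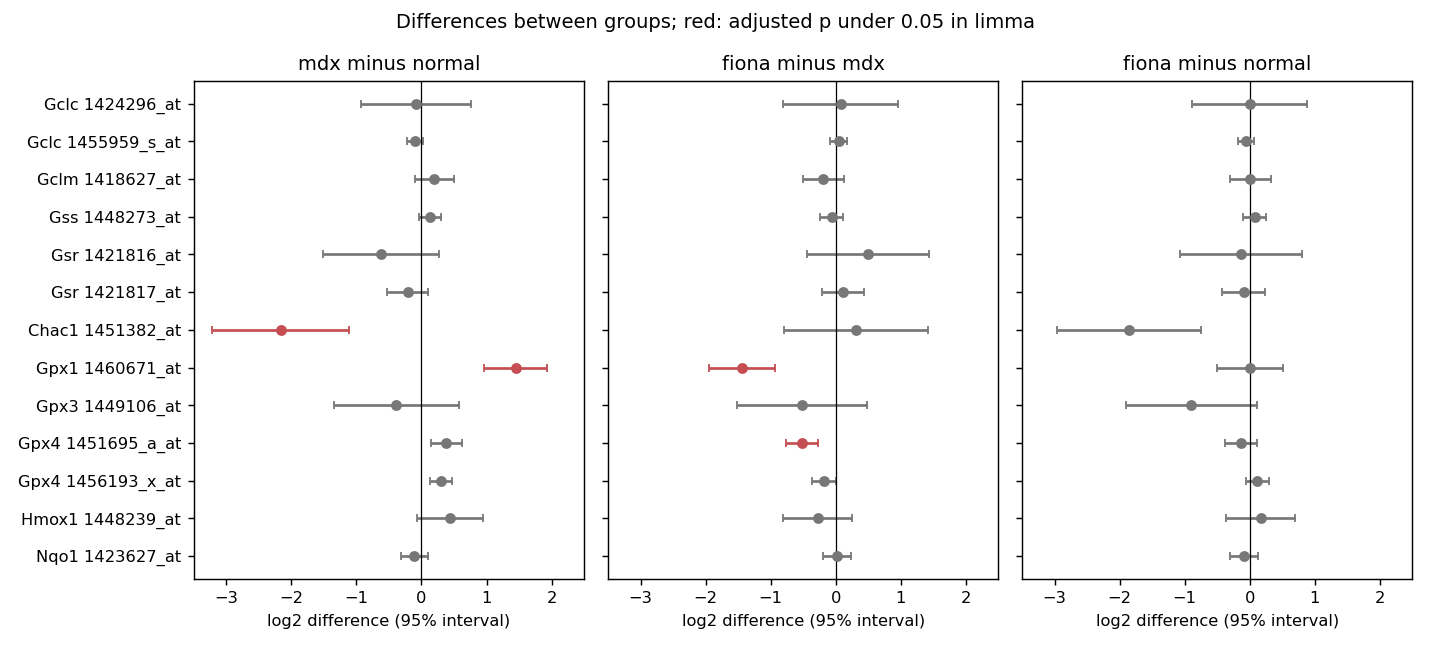
Differences between groups in log2 units for the 13 probe sets, with 95% intervals from limma; red marks an adjusted p under 0.05 over all 20380 probe sets. Gpx1 is displaced by 1.45 to the right in mdx minus normal and by 1.44 to the left in fiona minus mdx, while Chac1 lies to the left of 0 in both comparisons with normal muscle.

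The other genes of glutathione supply and turnover, which carry cystine, make its precursors or split glutathione, were mostly not called between mdx and normal muscle. Counts of this and the next lists stand beside 3.17% of all genes called higher and 1.33% lower in that comparison. Between fiona and mdx muscle the shares of all genes were 33.5% higher and 6.88% lower. Of 21 measured, 1 rose, Cndp2, a dipeptidase that splits cysteinylglycine, from 7.50 ± 0.27 to 8.41 ± 0.51 (adjusted p = 0.0445 in limma). Its call was kept in only 4 of 17 fits with 1 array left out, those without mdx 2, mdx 4, fiona 3 or fiona 4, and was lost in the paired fit (adjusted p = 0.0893), where Oplah, which releases glutamate from oxoproline, was called lower instead (-1.30, adjusted p = 0.0360). Between fiona and mdx muscle 3 genes were called lower and 3 higher, the lower ones being Cndp2 (-0.81), the homocysteine-releasing enzyme Ahcy (-0.55) and the transporter chain Slc3a2 (-0.79, adjusted p = 0.0399 in limma). Without fiona array 3 only 1 of the 21 was called lower, and without any of 6 arrays, mdx 5 and 6 and fiona 1, 3, 4 and 5, Slc3a2 was not called. Of the 3 called higher, Slc7a11, the partner of Slc3a2 in cystine uptake, and Ggt5 did not exceed the control level on any array, so no level was measured for them, and Cth, which makes cysteine, measured 2.79 ± 0.03 in mdx and 3.00 ± 0.09 in fiona muscle. With centred arrays 2 of the 21 were called lower (Ahcy and Cndp2) and 0 higher.

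Of 20 glutathione transferases, which attach glutathione to reactive compounds, 1 fell in mdx muscle. It was the mitochondrial and peroxisomal Gstk1, which measured 8.80 ± 0.29 (normal), 7.92 ± 0.46 (mdx) and 8.75 ± 0.30 (fiona) (mdx minus normal -0.88, adjusted p = 0.0231 in limma). That call was lost without normal array 1, 2 or 6 or mdx array 5 (adjusted p up to 0.0560). Between fiona and mdx muscle 8 transferases were called higher and 0 lower, or 40% of the list beside 33.5% of all genes, with Gstk1 at 0.83 and Gsta3 at 0.39. Of these 8, Gstm6 and Gstm7 did not exceed the control level on any array, and Gstm3 did not on 4 normal, 1 mdx and 3 fiona arrays. With each array centred on its median 2 of the 20 were higher, Gsta2 and Gsta3, and the list median changed sign, from 0.09 to -0.03.

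Of 9 other glutathione peroxidases and glutaredoxins, 2 rose in mdx muscle and fell in fiona relative to mdx muscle. These were Gpx8 and Gpx7, peroxidases of the endoplasmic reticulum. Gpx5 was called higher in fiona than in mdx muscle but did not exceed the control level on any array. Gpx8 measured 5.44 ± 0.43, 6.96 ± 0.78 and 5.61 ± 0.29 in normal, mdx and fiona muscle (mdx minus normal 1.52, adjusted p = 0.00959, and fiona minus mdx -1.35, adjusted p = 0.0130, both in limma). Gpx7 measured 3.54 ± 0.40, 4.64 ± 0.60 and 3.65 ± 0.31 (1.10 and -0.99), and its mdx minus normal call was lost in the paired fit (adjusted p = 0.0812) and without normal array 1 or 2 or mdx array 1, 3 or 4.

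Among 18 thioredoxins, peroxiredoxins, dismutases and catalase, the other main route of peroxide removal, 1 rose and 1 fell in mdx muscle. Txn1, the cytosolic thioredoxin, rose from 9.94 ± 0.14 to 10.89 ± 0.37 (difference 0.95, adjusted p = 0.000952 in limma) and was 10.03 ± 0.15 in fiona muscle. Txnip, which binds and inhibits thioredoxin, fell from 11.52 ± 0.36 to 10.31 ± 0.55 (-1.21, adjusted p = 0.00540 in limma) and was 11.18 ± 0.18 in fiona muscle. Between fiona and mdx muscle 3 of the 18 were called higher and 1 lower, beside 33.5% and 6.88% of all genes. Txn1 (-0.86) and Txnip (0.87) were among them, each in the opposite direction. With arrays centred on their medians Txn1 was still called there and Txnip was not. The paired fit also called catalase (Cat) lower in mdx muscle (-0.77, adjusted p = 0.0422).

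Of 23 regulators and targets of NRF2, 2 rose and 1 fell in mdx muscle. Pgd, an NADPH-producing enzyme of the pentose phosphate pathway, rose from 7.24 ± 0.27 to 8.74 ± 0.52 (adjusted p = 0.00195 in limma), and the aldo-keto reductase Akr1b8 rose by 1.34 to 6.28 ± 0.74, a call lost in the paired fit (adjusted p = 0.0635). Me1, the cytosolic malic enzyme and another source of NADPH, fell by 1.43 to 7.87 ± 0.75 (adjusted p = 0.00685 in limma). The paired fit called 2 higher and 2 lower, adding Tkt, of the pentose phosphate pathway (0.99, adjusted p = 0.0207), and Keap1, the inhibitor of NRF2 (-0.63, adjusted p = 0.0259). In fiona relative to mdx muscle 7 of the 23 fell, beside 6.88% of all genes, and the same 7 were called lower with centred arrays. The largest differences were those of Ugdh (-1.83), Pgd (-1.41) and Tkt (-1.20), and Nfe2l2, which encodes NRF2, fell from 8.68 ± 0.45 in mdx to 7.68 ± 0.63 in fiona muscle (adjusted p = 0.0146 in limma), with 8.40 ± 0.30 in normal muscle. Another 3 were called higher as deposited, beside 33.5% of all genes, and 0 with centred arrays. In array set 2 alone 0 of the 23 were called, where only 86 of all genes were.

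Of 26 genes of the ATF4 and integrated stress response, to which Chac1 belongs as a target, 1 rose and 1 fell between normal and mdx muscle. Psat1, of serine synthesis, rose from 3.62 ± 0.13 to 4.69 ± 0.59 (1.07, adjusted p = 0.00728 in limma, and 0.0532 in the paired fit). The seryl-tRNA synthetase gene Sars was called lower (-0.40, adjusted p = 0.0445 in limma), but in only 5 of 17 fits with 1 array left out, those without mdx 4, mdx 5, fiona 1, fiona 2 or fiona 4, and not in the paired fit (adjusted p = 0.0845). Between fiona and mdx muscle 4 were called higher and 4 lower, beside 33.5% and 6.88% of all genes. The lower ones included Psat1 (-0.84) and Phgdh (-1.27), also of serine synthesis. Ddit3, which encodes CHOP, was 0.96 higher (adjusted p = 0.0212 in limma, lost without fiona array 5). With centred arrays 3 were lower and 0 higher. Between mdx and normal muscle Ddit3 was not called (-0.56, adjusted p = 0.312 in limma).

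Of 18 genes of haem and iron handling, the setting of Hmox1, 0 were called between mdx and normal muscle (limma, 3 with an unadjusted p under 0.05). In fiona relative to mdx muscle 2 were called higher as deposited, beside 33.5% of all genes, and 0 with centred arrays. The smallest p between mdx and normal was that of Slc11a1, an iron transporter of phagosomes (1.42, adjusted p = 0.0517 in limma). The paired fit called 2 higher, Slc11a1 (adjusted p = 0.0403) and Hmox2, the constitutive haem oxygenase (0.36, adjusted p = 0.0183). Of 8 genes of NADPH oxidase and other superoxide sources, 3 rose in mdx muscle. In fiona relative to mdx muscle 4 were called lower and 1 higher, beside 6.88% and 33.5% of all genes. Cyba, the shared membrane subunit of NADPH oxidases, rose by at least 3.80 (adjusted p = 0.000257 in limma), from 3.85 ± 0.96 in normal, with 1 of 6 arrays at or under the control level, to 7.71 ± 0.74 in mdx muscle, and was 3.78 ± 0.95 in fiona muscle. The other 2, Ncf1 and Ncf4, measured 3.88 ± 0.34 and 3.51 ± 0.60 in mdx muscle, and each lost its mdx minus normal call in several fits with 1 array left out, 7 of 17 for Ncf1 and 14 of 17 for Ncf4, and in the paired fit (adjusted p = 0.0711 and 0.118), where Cyba was still called. Ncf4 did not exceed the control level on 5 of 6 normal and 5 of 5 fiona arrays. Rac2, the 4th gene called lower in fiona muscle, did not exceed it on 4 of 6 mdx and 5 of 5 fiona arrays, so no fall was measured. Noxo1, the gene called higher, did not exceed it on any array. Cyba and the Ncf genes are expressed in phagocytes, and the part of macrophages in these values was not tested.

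Of 14 other selenoproteins and genes of selenoprotein synthesis, a group to which Gpx1, Gpx3 and Gpx4 belong by their selenocysteine, 2 rose in mdx muscle. Selenop, the secreted carrier of selenium, rose from 11.15 ± 0.18 to 11.89 ± 0.21 (0.74, adjusted p = 0.00240 in limma) and fell to 10.90 ± 0.27 in fiona muscle (fiona minus mdx -0.99, adjusted p = 0.000443). Selenom, of the endoplasmic reticulum, measured 6.23 ± 0.26, 6.83 ± 0.33 and 6.15 ± 0.12, and its mdx minus normal call was lost in the paired fit and without any of normal arrays 1 to 5. Between fiona and normal muscle 27 of the 157 entries of these 9 lists had an unadjusted limma p under 0.05, beside 2751 of all 12393 genes. The number of genes of these lists called there in limma was 0. Without fiona array 2 this was no longer 0: in that fit 1 gene of supply and turnover and 1 ATF4 gene were called higher and 1 ATF4 gene lower, and 2 transferases were higher and 1 lower, while NRF2 genes were called lower, at most 3, without fiona array 2 or mdx array 4.

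**Figure D5:**
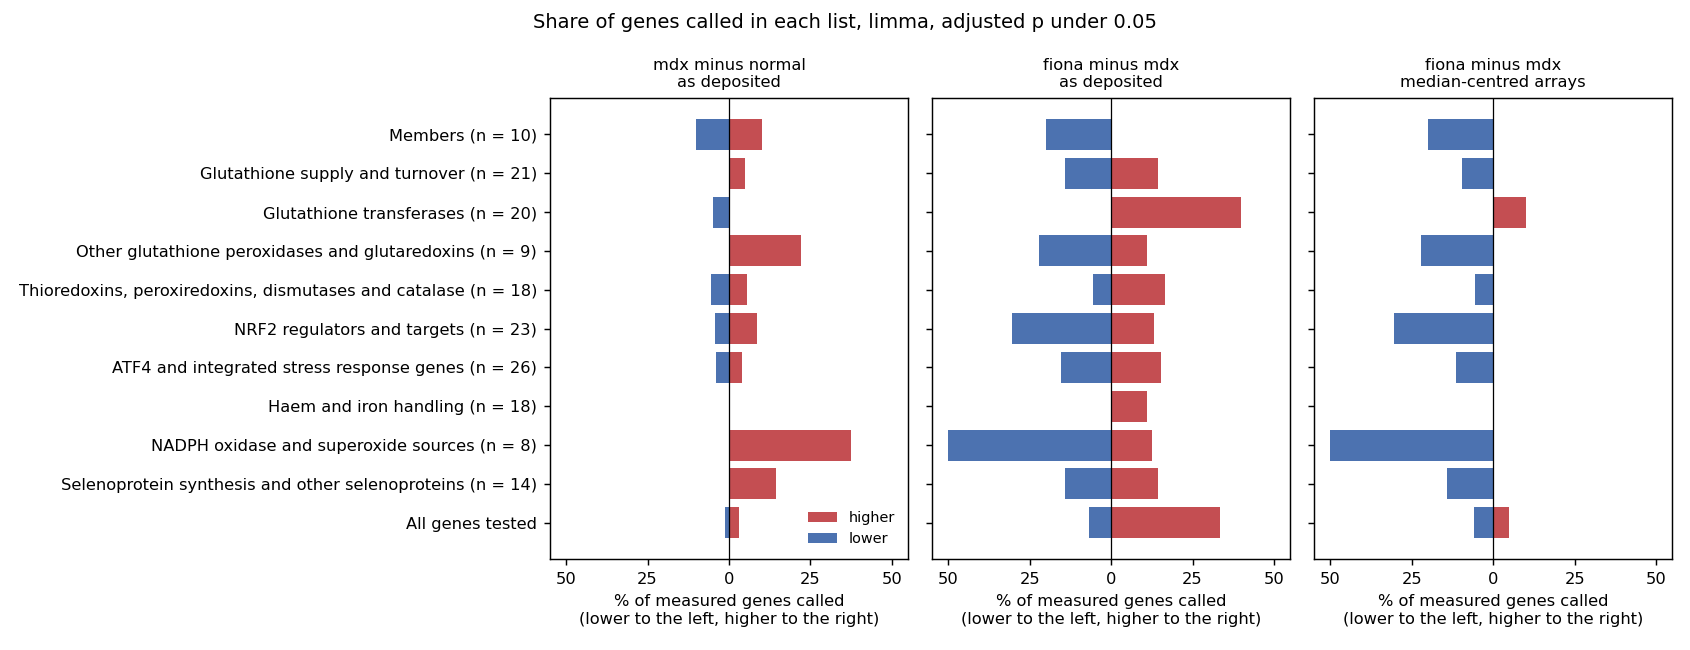
Share of the measured genes of each list called higher (right, red) or lower (left, blue), in percent, between mdx and normal muscle and between fiona and mdx muscle as deposited and with each array centred on its median; the bottom bars give all genes tested. In the middle panel the bar of all genes reaches 33.5% higher, and in the right panel its higher and lower parts are 4.95% and 6.00%.

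Scaling changed the fiona and mdx comparison as a whole and not the calls of the 10 genes. As deposited, 83% of the genes called there were higher in fiona muscle, 71.6% after quantile normalization and 45.2% with median-centred arrays. Gpx1 and Gpx4 were called lower under all 3, with Gpx1 differences from -1.57 to -1.31 and Gpx4 differences from -0.64 to -0.42.

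The genes whose levels ran most alike with the called genes were taken by Pearson correlation over the 17 arrays, which share groups and array sets, and are given as a description. For Gpx1 they were Ctsb (r = 0.969), Rnh1 (0.946) and Cyba (0.939), with 0.879, 0.788 and 0.696 once the group means were removed. Ctsb, the lysosomal protease cathepsin B, measured 10.78 ± 0.32, 12.08 ± 0.39 and 10.94 ± 0.31. For Chac1 they were 4930453N24Rik (0.827), Lnx1 (0.805) and Nsmaf (0.801), falling to between 0.558 and 0.622 without the group means. For Gpx4 they were C1qa (0.851), Eif4e (0.827) and Dctn5 (0.807), with 0.583, 0.766 and 0.681 without them.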

How the data were processed

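The authors deposited 1 log2 level for each probe set of 17 single-channel Affymetrix arrays. RMA and GCRMA are both named in the submitters' processing notes; which made the values is unknown here, and the 2 methods treat dim probes differently. Values were used as deposited.

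Of 22690 probe sets, 64 controls, 691 with several symbols and 1555 with none were left out. The other 20380 were fitted in limma 3.58.1 (R 4.3.3) as 3 group means without covariates, and p-values were adjusted by Benjamini and Hochberg over all of them. The brightest probe set, over all arrays, made a gene's call at an adjusted p under 0.05. The code was tested on simulated data. Exact permutation tests were two-sided on the difference in means. The control level is the median of 15 bacterial control probe sets on that array; a value not above it gives only a bound. No label gives a batch, and the array sets were drawn from the data. Label numbers were taken to pair normal with mdx arrays from these data (every same-number r over 0.1), not from a label, and not to pair fiona arrays. Normal and mdx arrays of the same number also shared an array set. Named were the 10 genes, up to 3 called genes per list and comparison with the largest difference (or the one with the smallest p), and the 3 genes most alike each called one. Nfe2l2, Slc7a11, Ggt5, Cth, Gsta2, Gstm3, Gstm6, Gstm7, Oplah, Keap1, Hmox2, Cat, Cd68, Epb42, Hba-a1 and Alas2, and Tkt and Ddit3 between mdx and normal, were named after their values were seen. So were Rac2 and Noxo1. The genes and lists were chosen with earlier results of these data known. Plots used Python 3.11.15 with matplotlib 3.10.9.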

Additional observations from a re-analysis of the deposited data

Results flagged for a closer look

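In 8 cases among 39 groups of values (13 probe sets in 3 groups) a single array stood apart from its group by Dixon's test at the 95% level, a test that flags about 1 group in 20 by chance. Gsr on 1421816_at was lowest on mdx array 1, at 2.45, where the nearest value was 4.59; on 1421817_at it was highest on normal array 1, at 6.43. Gpx4 on 1451695_a_at was lowest on fiona array 4, at 10.2, and on 1456193_x_at it was highest on fiona array 2, at 10.7, and on normal array 4, at 10.3. Gclc on 1455959_s_at was highest on normal array 4, at 4.80. Gss was highest on mdx array 3, at 2.94, and Nqo1 on fiona array 1, at 3.43, where the nearest value was 3.39.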

How the results depend on the processing

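Of 1116 values of single probe sets under alternatives, 1093 kept their direction where called and their side of the threshold, 17 passed the threshold only under the alternative, 6 passed it only as reported, and 0 called values changed sign. Gpx1 was called in both of its comparisons under every alternative run. The count of the 10 genes called was 1, Gpx1, between mdx and normal and 1, Gpx1, between fiona and mdx muscle in array set 2 alone, against 2 and 2; with 1 array left out it was 2 to 3, 2 to 2 and, between fiona and normal, 0 to 0.

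Normal and mdx arrays of the same label number had r of 0.10 to 0.61, with 6 of 6 pairs over 0.1. Each of these pairs lay within 1 array set. With fiona, 1 of 5 pairs was over 0.1 against normal (-0.51 to 0.48) and 2 of 5 against mdx (-0.42 to 0.30). The positive r with fiona were those of numbers 2 and 4, the only fiona pairs within 1 array set. Whether the label number or the array set underlies the agreement was not tested. With the number as a replicate block over all arrays, 1 of the 10 genes, Gpx1, was called between mdx and normal muscle, 2 between fiona and mdx, and 0 between fiona and normal, with 482, 411 and 1 called among all genes. On the normal and mdx arrays alone, a fit chosen after seeing the data, the block called 2 of the 10, Gpx1 and Gpx4, and 698 of all genes. Among the named genes, its changes of call are given above, and other named genes kept theirs.

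Among all genes, the 558 called between mdx and normal muscle became 1182 with the array sets as a block, 2980 in set 1, 237 in set 2, 5372 with array weights, 347 on arrays without the female pattern and 239 without mdx array 6 as well, also chosen after seeing the data. The 5004 called between fiona and mdx muscle became 1950 with quantile normalization, 1357 with centred arrays, 2062 with the filter on dim probe sets and 86 in set 2. The 0 called between fiona and normal muscle became 9 with the array sets as a block, 30 in set 1, 5 in set 2, 49 with array weights, 1 with the filter on dim probe sets, and 902 without fiona array 2. The cause was not tested. With only 1 fiona array without the female pattern, comparisons with fiona were not run on those arrays.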
